A study of Mus musculus with 77 samples.

Results

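The 10 genes described here encode the machinery that cuts, transports, loads and displays peptides on MHC class I. They are the heavy chains H2-K1 and H2-D1, their light chain B2m (beta-2-microglobulin), the peptide transporter subunits Tap1 and Tap2, the loading factor Tapbp (tapasin), the inducible proteasome subunits Psmb8, Psmb9 and Psmb10, and Nlrc5, a transactivator of class I genes. They were chosen by symbol, after the gene identifiers of a liver count table had been mapped to GRCm38 symbols. No measured value entered the rule, although earlier results of these data were known when the genes were chosen. The table held 55487 genes, of which 14904 passed a filter on low counts, and all 10 genes were among these. The lowest count of any of the 10 genes in any mouse was 90, for Nlrc5.

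The livers came from 77 male C57BL/6JRj mice, with 1 library per mouse. Diet-induced obese MASH (DIO-MASH) mice, bought at 5–6 weeks of age, had eaten the Gubra Amylin NASH diet, which is rich in fat, fructose and cholesterol, for 34 weeks, and were enrolled by the steatosis and fibrosis scores of a liver biopsy. Semaglutide, a GLP-1 receptor agonist, was injected subcutaneously every day, reaching 123 µg/kg, and livers were taken after 8, 16 and 24 weeks (n = 7, 8 and 8 mice), chow reversal mice were returned to regular chow and dosed with vehicle for the same times (n = 7, 8 and 8), and vehicle mice stayed on the diet (n = 9, 8 and 7). A chow group (n = 7) received regular chow throughout and vehicle for 24 weeks, so that no chow values exist for the earlier times. Every group had been dosed, the model is one of diet in males alone, and RNA was taken from a piece of the whole left lateral lobe, so that a mixture of cells was measured.

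MHC class I molecules show short peptides from inside the cell to CD8 T cells. The proteasome cuts the peptides, the TAP transporter carries them into the endoplasmic reticulum, and tapasin helps to fit them into a heavy chain paired with beta-2-microglobulin. Under interferon gamma, cells replace the constitutive catalytic subunits of the proteasome by Psmb8, Psmb9 and Psmb10, and the liver, where hepatocytes carry low class I at rest, is one of the tissues in which this replacement is known from infection and inflammation.

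Of the 10 genes, 7 lie within the MHC region of chromosome 17 in GRCm38. H2-K1 spans chr17:33996017-34000347 on the minus strand, Tapbp chr17:33915899-33929292 on the plus strand and H2-D1 chr17:35262730-35267499 on the plus strand. Psmb9 (chr17:34181987-34187764, minus strand), Tap1 (chr17:34187553-34197225, plus strand), Psmb8 (chr17:34197721-34201454, plus strand) and Tap2 (chr17:34203527-34216321, plus strand) stand side by side, and the annotated ends of Psmb9 and Tap1 overlap by 212 bases on opposite strands. B2m lies on chromosome 2 (chr2:122147686-122153083, plus strand), and Psmb10 (chr8:105935735-105938444, minus strand) and Nlrc5 (chr8:94434356-94527272, plus strand) lie on chromosome 8.

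The upstream sequence is shown for the genes whose levels are described in most detail, since class I genes are known to be driven by interferon and NF-kappaB elements next to their starts. The 250 bases before the start were read from RefSeq (GRCm38.p6) for 8 of the 10 genes, Tap2 and Nlrc5 being named only, and searched on both strands for GAAANNGAAA (the interferon-stimulated response element, ISRE), TTCNNNGAA (the interferon gamma activated site, GAS) and GGGNNTTCC (a kappaB element), N being any base. RefSeq starts can differ from the ends of the gene spans given above, so that the windows of H2-D1, Psmb8, Psmb9 and Tapbp lie inside those spans. H2-K1 has a second RefSeq start, from which its match lies at −125 to −117. Each pattern is a strict form of its element, and looser forms were neither searched for nor marked. A stretch in lower case can therefore still hold such an element. Capitals mark the matches, and each window is printed 5′ to 3′ on the strand of its gene.
H2-K1 (chr17:34000348-34000597, minus strand): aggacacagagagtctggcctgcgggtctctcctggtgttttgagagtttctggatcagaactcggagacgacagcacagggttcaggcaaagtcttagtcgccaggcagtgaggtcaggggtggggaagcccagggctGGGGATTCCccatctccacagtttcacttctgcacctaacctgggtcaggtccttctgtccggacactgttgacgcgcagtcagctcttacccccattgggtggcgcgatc
H2-D1 (chr17:35262844-35263093, plus strand): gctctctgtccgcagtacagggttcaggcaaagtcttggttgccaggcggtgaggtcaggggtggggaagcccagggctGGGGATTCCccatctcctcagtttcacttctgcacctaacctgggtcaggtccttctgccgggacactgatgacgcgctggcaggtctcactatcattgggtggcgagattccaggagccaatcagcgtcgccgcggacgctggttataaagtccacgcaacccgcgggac
B2m (chr2:122147437-122147686, plus strand): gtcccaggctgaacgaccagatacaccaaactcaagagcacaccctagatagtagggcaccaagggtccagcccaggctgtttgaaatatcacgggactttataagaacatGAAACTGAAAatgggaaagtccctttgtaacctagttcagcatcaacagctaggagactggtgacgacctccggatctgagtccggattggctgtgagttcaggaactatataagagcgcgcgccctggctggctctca
Psmb8 (chr17:34197945-34198194, plus strand): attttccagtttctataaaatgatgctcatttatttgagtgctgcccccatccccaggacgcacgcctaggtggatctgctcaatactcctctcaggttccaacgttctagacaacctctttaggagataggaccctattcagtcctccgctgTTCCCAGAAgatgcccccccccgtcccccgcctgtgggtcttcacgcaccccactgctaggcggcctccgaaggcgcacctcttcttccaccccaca
The interval of 225 bases between the RefSeq starts of Psmb9 and Tap1, printed on the plus strand, held none of the 3 motifs.
Tap1 and Psmb9 (chr17:34187331-34187555): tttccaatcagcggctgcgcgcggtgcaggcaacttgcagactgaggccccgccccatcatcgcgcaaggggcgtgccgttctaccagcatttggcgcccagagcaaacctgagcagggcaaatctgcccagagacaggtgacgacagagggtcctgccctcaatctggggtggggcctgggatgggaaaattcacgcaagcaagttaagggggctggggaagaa
H2-K1 and H2-D1 carried the same kappaB match of 9 bases, at −111 to −103 and at −171 to −163 from the start. B2m carried an ISRE match at −139 to −130, and Psmb8 a GAS match at −97 to −89 that reads as a match on both strands. None of the 3 motifs was found in the windows of Tap1, Psmb9, Tapbp and Psmb10. Among 32851 windows of this kind, 2.98% held the ISRE, 7.02% the GAS and 4.98% the kappaB motif, and a match is a description of the letters, not of a factor bound there.

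Library totals ran between 8883150 and 37631072 counts with a median of 16406937, and 3 libraries, semaglutide 16 weeks replicates 7 and 8 and semaglutide 24 weeks replicate 8, carried library numbers apart from the other 74. These 3 libraries stood apart in several of the 10 genes and are given with the results that rest on them. The livers held their hepatocyte RNA as labelled, with 10 hepatocyte markers summing to medians between 54450 and 126400 in CPM over the groups, CPM being counts scaled to the size of the library. Library sizes were set by TMM, which levels the bulk of genes between libraries. Fold changes, their standard errors (SE) and p-values came from edgeR's quasi-likelihood test over 14904 genes with Benjamini-Hochberg adjustment, and a gene was called at an adjusted p under 0.05.

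Per kilobase of transcript, the median level over all mice was highest for B2m (1350 CPM per kb), followed by H2-K1 (844.3 CPM per kb) and H2-D1 (326.7 CPM per kb). Psmb10 (28.49 CPM per kb), Tapbp (25.25 CPM per kb) and Psmb8 (24.84 CPM per kb) lay close together, and their ranges over mice overlapped. Psmb9 followed at 14.19 CPM per kb, Tap2 at 11.2 CPM per kb, Tap1 at 10.54 CPM per kb and Nlrc5 at 2.48 CPM per kb. The abundant genes varied least. The highest mouse exceeded the lowest 1.83-fold for B2m, 1.87-fold for H2-K1 and 1.8-fold for H2-D1, against 3.92-fold for Psmb8 and 4.86-fold for Psmb10.

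**Figure D1:**
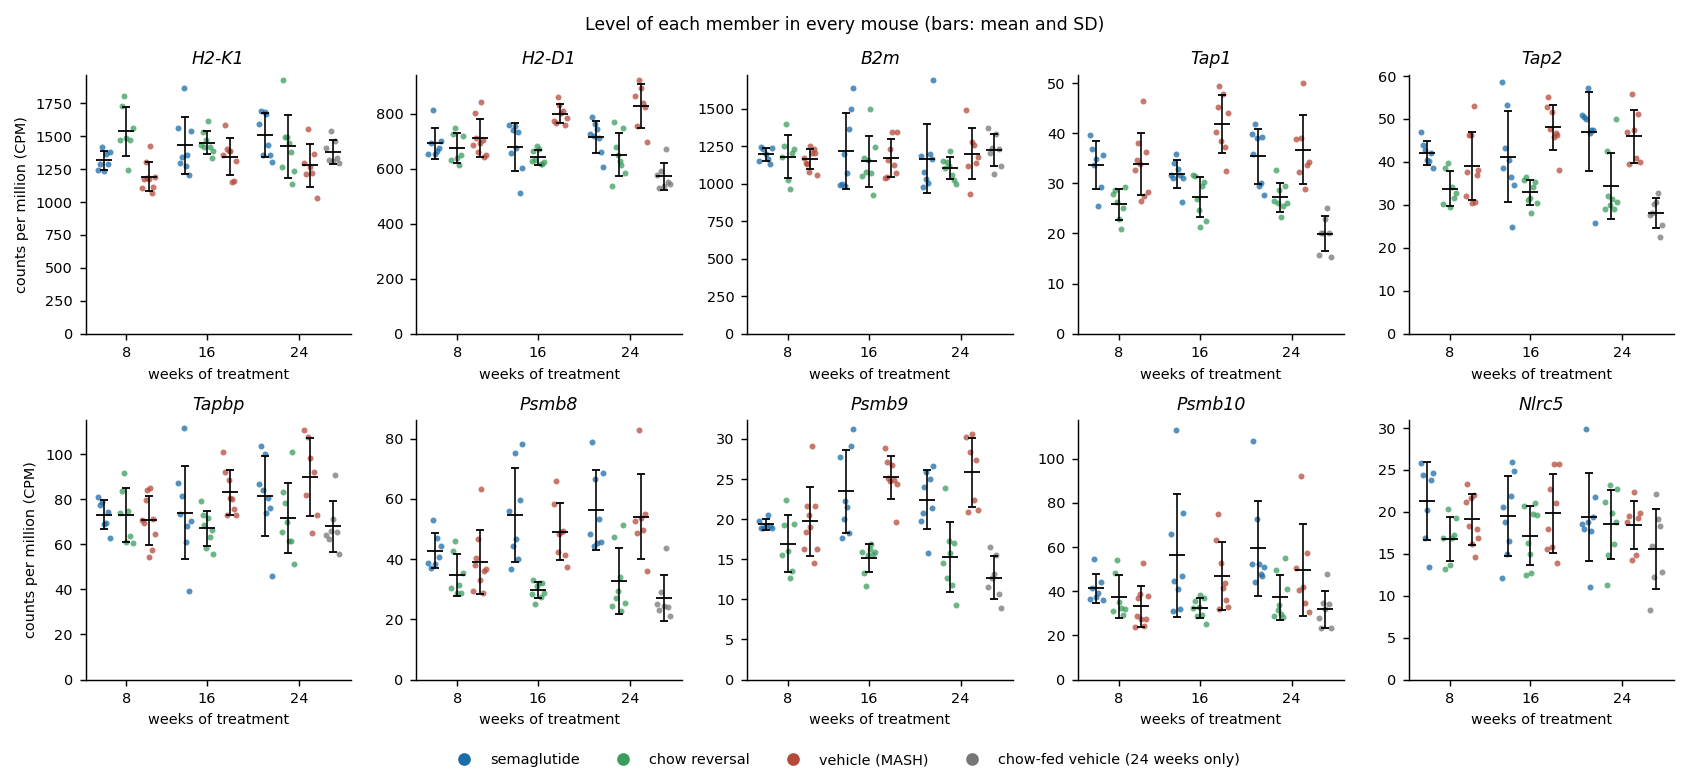
Level of each of the 10 genes in every mouse, in CPM (y axis) against weeks of treatment (x axis), with points for mice and bars for the mean and SD of semaglutide, chow reversal, vehicle and chow groups. Tap1, Psmb8 and Psmb9 are lowest in chow livers, with means of 19.93, 27.19 and 12.71 CPM, while B2m has group means between 1102 and 1223 CPM.

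The first question was how the machinery stood in MASH livers relative to lean livers. Between vehicle and chow livers at 24 weeks, 7 of the 10 genes differed and all 7 were higher in vehicle livers: Psmb9, Psmb8, Tap1, Tap2, Psmb10, H2-D1 and Tapbp. Of all genes tested, 47.8% passed in either direction and 25.8% were higher. The median log2 fold change was 0.59 over the 10 genes and −0.02 over all genes. H2-K1 (−0.11), B2m (−0.03) and Nlrc5 (0.24) did not pass. The values of vehicle and chow mice did not overlap for H2-D1, Tap1, Tap2 and Psmb9, as for 22.3% of all genes.

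The chow reversal groups answered how far a return to chow alone moved these genes. After 8 weeks, 1 of the 10 genes was higher and 1 lower in chow reversal than in vehicle livers (32.1% of all genes passed, 14.2% higher and 17.9% lower). After 16 weeks, 6 were lower (28.2% of all genes passed, 16.2% lower), and after 24 weeks 5 were lower (36.1% of all genes passed, 19.1% lower). Over the 10 genes the median log2 fold change was −0.12 after 8 weeks, −0.43 after 16 weeks and −0.38 after 24 weeks, against −0.03, −0.003 and 0.04 over all genes. At 16 weeks, chow reversal and vehicle mice did not overlap for 5 genes, H2-D1, Tap1, Tap2, Psmb8 and Psmb9, as for 7.75% of all genes.

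The semaglutide groups answered what the drug did while the diet continued. After 8 weeks, none of the 10 genes differed between semaglutide and vehicle livers in edgeR or DESeq2, none had an unadjusted p under 0.05, and 5.75% of all genes passed. After 16 weeks, H2-D1 and Tap1 were lower (12.2% of all genes passed, 5.8% lower), and after 24 weeks H2-K1 was higher and H2-D1 lower (24.3% of all genes passed, 10.8% higher and 13.6% lower). The median log2 fold change of the 10 genes lay between −0.06 and 0.08 over the 3 times. In a test of the 3 times jointly, H2-D1 (adjusted p = 0.004288), Tap1 (adjusted p = 0.01979) and H2-K1 (adjusted p = 0.04445) passed, where 30.9% of all genes did, and the smallest adjusted p of the others was 0.3092, for Psmb10. The single calls behind these at 16 and 24 weeks were each lost under 2 to 4 of the 7 alternative settings.

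Set directly against chow reversal, semaglutide livers had 1 gene higher after 8 weeks (6.16% of all genes passed, 3.52% higher), 3 higher after 16 weeks (9.8% and 6.24%) and 5 higher after 24 weeks (16.5% and 7.77%), and none lower. Against chow livers at 24 weeks, 6 genes were higher in semaglutide livers (31.4% of all genes passed, 17.9% higher) and 1 in chow reversal livers (6.63% and 5.72%). The values of semaglutide and chow mice did not overlap for Tap1 and Psmb8, as for 6.76% of all genes. With only the groups compared in the fit, 3.93% of all genes passed between semaglutide and chow reversal at 24 weeks. Of the 5, Psmb8 alone passed there (adjusted p = 0.0269). Tap1, Psmb10, Psmb9 and Tap2 kept log2 fold changes of 0.390, 0.687, 0.565 and 0.464 with adjusted p = 0.0535, 0.058, 0.0648 and 0.0927. These comparisons share their vehicle, chow reversal or chow mice with one another, so each is given by its own values.

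**Figure D2:**
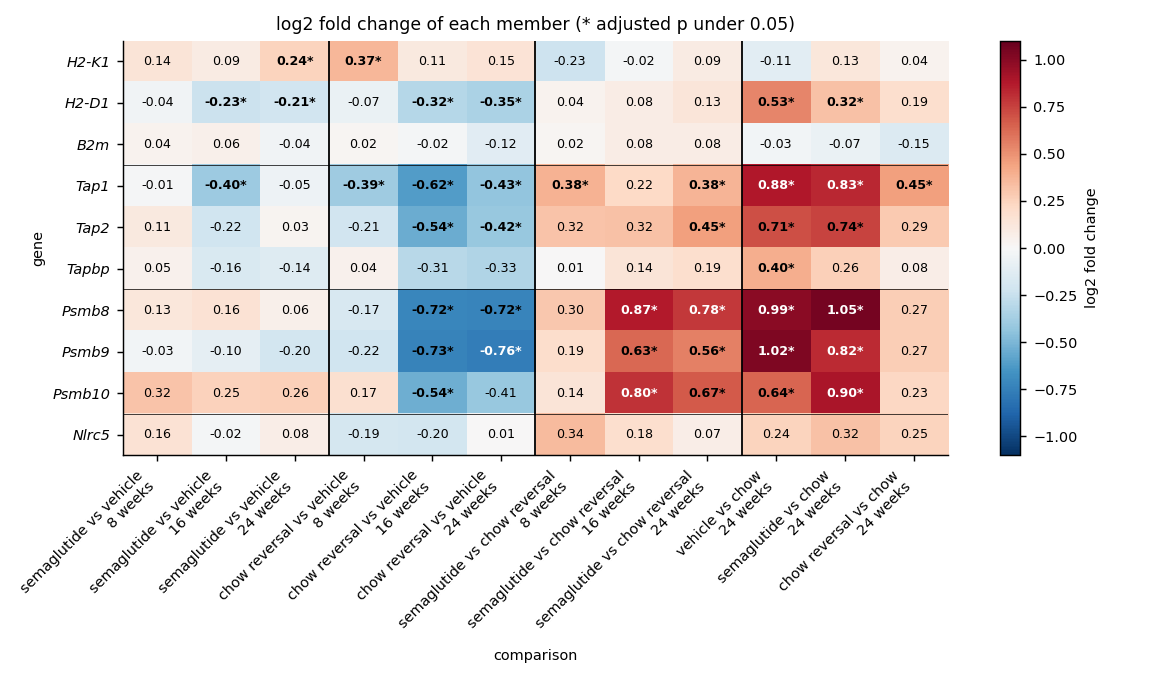
Log2 fold change of each of the 10 genes (rows) in 12 comparisons (columns), with colour for size and direction and an asterisk for an adjusted p under 0.05 in edgeR's quasi-likelihood test. The immunoproteasome genes Psmb8 and Psmb9 are lower in chow reversal than in vehicle livers at 16 and 24 weeks (−0.72 to −0.76) and within −0.20 to 0.16 between semaglutide and vehicle livers.

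A different scaling moved all genes together and bears on the small differences. With libraries scaled to their totals in place of TMM, the median of all genes was 0.40 log2 higher in vehicle than in chow livers, 0.26 to 0.31 lower in chow reversal than in vehicle livers, and 0.13 to 0.24 lower in semaglutide than in vehicle livers. Under that scaling H2-K1, B2m and Nlrc5 also passed as higher in vehicle than in chow livers, at log2 fold changes of 0.304, 0.396 and 0.665. Relative to the shift of all genes these were −0.096, −0.004 and 0.265. After 24 weeks of semaglutide the count became 4 lower and none higher, where 32.5% of all genes passed, and after 8 weeks of chow reversal 7 lower and none higher, where 44.3% of all genes passed.

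Among the heavy chains, H2-D1 differed with the diet, while H2-K1 did not pass between vehicle and chow livers. H2-D1, one of the classical class I molecules of C57BL/6 mice, was higher in vehicle than in chow livers by a log2 fold change of 0.53 (SE 0.077, adjusted p = 1.901e-08). At 24 weeks its lowest, median and highest levels were 604.9, 721.6 and 786.5 CPM in semaglutide livers, 536.9, 639.3 and 768.3 CPM in chow reversal livers, 695.2, 837.6 and 921.4 CPM in vehicle livers and 528.9, 549.6 and 672.9 CPM in chow livers. Every vehicle liver exceeded every chow liver, and both treated groups overlapped with vehicle. At 16 weeks the levels were 511.3, 703.9 and 760.1 CPM in semaglutide livers, 615.2, 629.6 and 683.6 CPM in chow reversal livers and 759.5, 793.9 and 860.3 CPM in vehicle livers. All chow reversal livers lay below all vehicle livers, and semaglutide overlapped vehicle by a narrow margin.

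H2-D1 was lower in chow reversal than in vehicle livers, with a log2 fold change of −0.32 at 16 weeks (adjusted p = 0.0003925) and of −0.35 at 24 weeks (adjusted p = 0.0001229). For semaglutide against vehicle it was −0.23 after 16 weeks (adjusted p = 0.02367) and −0.21 after 24 weeks (adjusted p = 0.02821). At 8 weeks H2-D1 averaged 692.8 ± 56.03 CPM in semaglutide livers, 675.3 ± 53.9 CPM in chow reversal livers and 710.6 ± 68.4 CPM in vehicle livers (SD, n = 7, 7 and 9), and neither difference from vehicle passed. The 3 libraries numbered apart had the low H2-D1 values of 511.3, 603.6 and 604.9 CPM. Without them, H2-D1 no longer passed between semaglutide and vehicle at 16 weeks (−0.128, adjusted p = 0.321) or 24 weeks (−0.158, adjusted p = 0.0902). Over the 7 alternatives the call at 16 weeks was lost in 4, among them the block on library numbers (−0.153, adjusted p = 0.195), and the call at 24 weeks in 3, with adjusted p up to 0.168.

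H2-K1, the other classical heavy chain studied, had its lowest mean in vehicle livers at every time. Its means were 1316 ± 71.5, 1432 ± 216 and 1511 ± 165 CPM after 8, 16 and 24 weeks of semaglutide, 1539 ± 185, 1451 ± 87.7 and 1423 ± 240 CPM after the same times of chow reversal, 1194 ± 110, 1343 ± 141 and 1278 ± 162 CPM in vehicle livers, and 1383 ± 92.2 CPM in chow livers (SD). It was higher after 24 weeks of semaglutide than in vehicle livers (log2 fold change 0.24, SE 0.0877, adjusted p = 0.03523) and after 8 weeks of chow reversal (0.37, SE 0.0849, adjusted p = 0.0005417). Both differences depended on the scaling: with library totals they were 0.007 and 0.088 and did not pass, although 0.248 and 0.396 above the shift of all genes. The call for semaglutide was lost in 3 of the 7 alternatives, also without the filter on low counts and with only the groups compared. The call for chow reversal was lost in 1. H2-K1 and H2-D1 thus differed in sign in the comparison of semaglutide with vehicle at 24 weeks under TMM.

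B2m, which pairs with every class I heavy chain, passed in none of the 12 comparisons in edgeR with TMM, and its group means ran from 1102 to 1223 CPM. Its largest difference in absolute size was −0.15 between chow reversal and chow livers (adjusted p = 0.4566). The 95% interval of the log2 fold change between semaglutide and vehicle livers at 24 weeks was −0.235 to 0.151. The 3 libraries numbered apart held high B2m levels of 1495, 1637 and 1688 CPM.

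Mouse class I heavy chains are near copies of one another, and reads can be shared between them. Of the windows of 50 bases along the longest transcripts, 8.79% of those of H2-K1 and 12.0% of those of H2-D1 were found in another of 28 class I genes, H2-K1 sharing most with H2-D1 (6.94%) and H2-D1 with H2-Q1 (7.4%). Summed over 21 class I heavy chain genes, the log2 fold change was −0.22 between vehicle and chow livers (adjusted p = 0.03775), 0.27 between chow reversal and vehicle livers at 8 weeks (adjusted p = 0.01015), and 0.21 between semaglutide and vehicle livers at 24 weeks (adjusted p = 0.06711). The sum and H2-D1 therefore ran in opposite directions between vehicle and chow livers.

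H2-Q10, which encodes a class I protein secreted by the liver, is among the genes summed and is highly expressed. H2-Q10 averaged 2633 ± 304 CPM in semaglutide, 2519 ± 388 CPM in chow reversal, 2089 ± 346 CPM in vehicle and 3120 ± 332 CPM in chow livers at 24 weeks (SD). It was lower in vehicle than in chow livers (log2 fold change −0.58, adjusted p = 4.617e-06) and higher than in vehicle livers after 24 weeks of semaglutide (0.33, adjusted p = 0.01249) and of chow reversal (0.27). These directions were opposite to those of H2-D1.

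Of 14 other class I heavy chain genes tested, 9 were higher and 1 lower in vehicle than in chow livers, where 47.8% of all genes passed. At 24 weeks 3 were higher and 6 lower in semaglutide than in vehicle livers, where 24.3% of all genes passed. The median log2 fold changes were 0.89 and −0.11, against −0.02 and −0.01 over all genes. Most genes named from this list and the later ones were chosen for their small p in the joint semaglutide test. Their semaglutide values therefore do not stand for their lists. H2-Q1 averaged 27.2 ± 12.3 CPM after 24 weeks of semaglutide, 21.8 ± 7.52 CPM after chow reversal, 56.6 ± 11.7 CPM with vehicle and 5.55 ± 1.77 CPM in chow livers (SD). Its log2 fold change between semaglutide and vehicle livers was −1.18 after 8 weeks (adjusted p = 0.000347), −0.61 after 16 weeks (adjusted p = 0.0532) and −1.05 after 24 weeks (adjusted p = 0.000378). H2-M2 fell by 1.44 on the log2 scale after 24 weeks of semaglutide (adjusted p = 0.0102), with means of 1.354 CPM in semaglutide and 3.776 CPM in vehicle livers. H2-Q7, which encodes the nonclassical Qa-2 antigen, was higher in semaglutide than in vehicle livers at 8, 16 and 24 weeks, by 0.48, 0.38 and 0.52 (adjusted p = 0.004761, 0.01847 and 0.0006853), and H2-Q6, its close copy, was higher at 24 weeks (0.37, adjusted p = 0.0248). H2-Q7 did not differ in the test between vehicle and chow livers (−0.18, adjusted p = 0.237).

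Tap1 and Tap2, which form the peptide transporter, were higher in MASH livers and fell with chow reversal. Tap1 ranged over 28.91, 34.3 and 49.97 CPM (lowest, median and highest) in vehicle livers at 24 weeks and over 15.34, 20.12 and 25.15 CPM in chow livers. Every vehicle liver was above every chow liver, and the log2 fold change was 0.88 (SE 0.1158, adjusted p = 1.316e-09). Tap1 was lower in chow reversal than in vehicle livers at all 3 times, at −0.39 on the log2 scale after 8 weeks (adjusted p = 0.004148), −0.62 after 16 weeks (adjusted p = 4.751e-06) and −0.43 after 24 weeks (adjusted p = 0.001332). After 24 weeks of chow reversal it ranged over 23.24, 26.3 and 32.58 CPM and was still above chow livers by 0.45 (adjusted p = 0.006033), and none of the other 9 genes passed in that comparison. With only those groups in the fit the adjusted p was 0.0584.

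Between semaglutide and vehicle livers Tap1 passed at 16 weeks. At that time its lowest, median and highest levels were 26.25, 31.61 and 35.94 CPM in semaglutide livers, 21.36, 28.1 and 31.71 CPM in chow reversal livers and 32.55, 42.14 and 49.4 CPM in vehicle livers. The groups overlapped in a narrow range, and the log2 fold change was −0.40 (SE 0.1068, adjusted p = 0.009428). After 8 weeks it stood at −0.01 (adjusted p = 0.9802) and after 24 weeks at −0.05 (adjusted p = 0.7603), and the change of the effect between 8 and 24 weeks did not pass (adjusted p = 0.9806). Without the 3 libraries numbered apart, of which the lowest had 26.25 CPM of Tap1, the difference at 16 weeks was −0.330 with an adjusted p of 0.0776, and with the block on library numbers −0.328 with an adjusted p of 0.0737.

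Tap2 had means of 42.1 ± 2.80, 41.2 ± 10.6 and 47 ± 9.196 CPM after 8, 16 and 24 weeks of semaglutide, 33.8 ± 4.03, 32.9 ± 2.98 and 34.4 ± 7.66 CPM after chow reversal, 39.03 ± 7.93, 48.02 ± 5.26 and 45.95 ± 6.23 CPM with vehicle, and 28.2 ± 3.48 CPM in chow livers (SD). Vehicle exceeded chow by 0.71 on the log2 scale (adjusted p = 4.945e-06). Chow reversal was lower than vehicle, at −0.54 after 16 weeks (adjusted p = 0.000296) and −0.42 after 24 weeks (adjusted p = 0.005949), and semaglutide was above chow reversal by 0.45 at 24 weeks (adjusted p = 0.007286). No difference of Tap2 between semaglutide and vehicle livers passed, the log2 fold changes being 0.11, −0.22 and 0.03.

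Tapbp, which holds empty class I molecules at the transporter, differed less between vehicle and chow livers than Tap1 and Tap2. It averaged 81.4 ± 17.8 CPM in semaglutide, 71.6 ± 15.6 CPM in chow reversal, 89.8 ± 17.3 CPM in vehicle and 67.9 ± 11.2 CPM in chow livers at 24 weeks (SD). Vehicle exceeded chow by 0.40 on the log2 scale (adjusted p = 0.01447), and the differences of chow reversal from vehicle, −0.31 at 16 weeks (adjusted p = 0.07189) and −0.33 at 24 weeks (adjusted p = 0.05159), lay just outside the threshold. They passed with the block on library numbers (−0.311, adjusted p = 0.021, and −0.339, adjusted p = 0.0121) and without the 3 libraries numbered apart (adjusted p = 0.0435 and 0.033), and at 24 weeks also in DESeq2 (adjusted p = 0.0453). Tapbp overlaps Zbtb22 by 3422 bases on the same strand, so part of its reads could have been assigned to either gene.

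The other genes of peptide loading, among them aminopeptidases and chaperones of the endoplasmic reticulum, did not follow Tap1 and Tap2. Of 17 tested, none was higher and 7 were lower in vehicle than in chow livers (47.8% of all genes passed, 22% lower). At 24 weeks 5 were higher and none lower in chow reversal than in vehicle livers (36.1% of all genes passed, 17% higher). The median log2 fold changes were −0.245 and 0.191, against −0.021 and 0.044 over all genes. Against vehicle, 3 were higher after 16 weeks of semaglutide (12.2% of all genes passed, 6.44% higher) and 2 after 24 weeks (24.3% and 10.8%). After 8 weeks edgeR called none, 1 had an unadjusted p under 0.05, and 5.75% of all genes passed. Lap3, a leucine aminopeptidase, was lower in vehicle than in chow livers at a log2 fold change of −0.70 (adjusted p = 3.5e-10) and higher than in vehicle livers after 24 weeks of semaglutide by 0.38 (adjusted p = 0.00054) and of chow reversal by 0.54 (adjusted p = 4.08e-07). Sec61g, a subunit of the translocon channel, was higher in semaglutide than in vehicle livers at 16 weeks (1.15, adjusted p = 0.00391), the time at which 2 of the libraries numbered apart enter.

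At 16 and 24 weeks, the inducible proteasome subunits had larger differences between semaglutide and chow reversal livers than the other 7 of the 10 genes. Psmb8 (beta5i) and Psmb9 (beta1i) were higher in vehicle than in chow livers, lower after 16 and 24 weeks of chow reversal than with vehicle, and did not pass between semaglutide and vehicle livers. Psmb8 ranged over 44.26, 50.78 and 78.74 CPM (lowest, median and highest) in semaglutide livers, 22.67, 28.21 and 51.18 CPM in chow reversal livers, 36.14, 52.51 and 82.87 CPM in vehicle livers and 21.13, 24.27 and 43.7 CPM in chow livers at 24 weeks. Semaglutide and vehicle mice overlapped widely, and every semaglutide liver was above every chow liver. The log2 fold change was 0.99 between vehicle and chow (SE 0.1755, adjusted p = 2.176e-06), −0.72 between chow reversal and vehicle (SE 0.1679, adjusted p = 0.000368) and 0.78 between semaglutide and chow reversal (SE 0.1635, adjusted p = 0.0004839).

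At 16 weeks Psmb8 ranged over 36.63, 51.34 and 78.13 CPM in semaglutide livers, 24.94, 30.04 and 32.95 CPM in chow reversal livers and 37.3, 48.75 and 66.06 CPM in vehicle livers. Every chow reversal liver lay below every semaglutide and every vehicle liver, and the separation from semaglutide was shared by Psmb9 and by 1.17% of all genes. Between semaglutide and vehicle livers the log2 fold changes of Psmb8 were 0.13, 0.16 and 0.06 at 8, 16 and 24 weeks (adjusted p = 0.7454, 0.5728 and 0.8319). The 95% interval at 24 weeks was −0.271 to 0.385, and the chow reversal difference of −0.72 lay outside it.

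Psmb9 at 24 weeks ranged over 15.75, 22.74 and 26.59 CPM in semaglutide livers, 9.274, 15.19 and 23.82 CPM in chow reversal livers, 20.85, 27.35 and 30.62 CPM in vehicle livers and 8.926, 12.71 and 16.48 CPM in chow livers. Every vehicle liver was above every chow liver (log2 fold change 1.02, SE 0.1446, adjusted p = 1.013e-08). Chow reversal livers were lower than vehicle livers at log2 fold changes of −0.73 after 16 weeks (adjusted p = 1.272e-05) and −0.76 at 24 weeks (adjusted p = 7.948e-06), and semaglutide livers were higher than chow reversal livers by 0.63 (adjusted p = 0.0007844) and 0.56 (adjusted p = 0.00278). Between semaglutide and vehicle livers Psmb9 differed at log2 fold changes of −0.03, −0.10 and −0.20 (adjusted p = 0.9353, 0.6617 and 0.2884). The 3 libraries numbered apart had high Psmb8 levels of 59.58, 78.13 and 68.64 CPM and Psmb9 levels of 29.06, 31.2 and 26.59 CPM. Without them, semaglutide livers still exceeded chow reversal livers at 16 and 24 weeks, by 0.756 and 0.745 for Psmb8 and by 0.497 and 0.525 for Psmb9, all past the threshold.

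Psmb10 (beta2i), which is encoded outside the MHC, varied most between mice. At 24 weeks it averaged 59.5 ± 21.5 CPM in semaglutide, 37.3 ± 10.3 CPM in chow reversal, 49.7 ± 20.8 CPM in vehicle and 31.9 ± 8.43 CPM in chow livers (SD). It was higher in vehicle than in chow livers by 0.64 (adjusted p = 0.0147), lower in chow reversal than in vehicle livers after 16 weeks at a log2 fold change of −0.54 (adjusted p = 0.04334) but not past the threshold at 24 weeks (−0.41, adjusted p = 0.1288), and higher in semaglutide than in chow reversal livers by 0.80 at 16 weeks (adjusted p = 0.007762) and 0.67 at 24 weeks (adjusted p = 0.02021). Its differences between semaglutide and vehicle livers were 0.32, 0.25 and 0.26 and did not pass (adjusted p = 0.4242, 0.4493 and 0.3946).

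The constitutive subunits that Psmb8, Psmb9 and Psmb10 replace are Psmb5, Psmb6 and Psmb7, and none of these passed between vehicle and chow livers. Psmb5 averaged 113.0 ± 28 CPM in semaglutide, 100.5 ± 23.5 CPM in chow reversal, 111.3 ± 31.7 CPM in vehicle and 106.2 ± 12.4 CPM in chow livers at 24 weeks (SD). Psmb5 and Psmb6 passed in none of the comparisons of treatments, and Psmb7 was higher than in vehicle livers after 16 and 24 weeks of semaglutide (0.37, adjusted p = 0.03625, and 0.36, adjusted p = 0.03211) and after 8 weeks of chow reversal (0.32, adjusted p = 0.0385).

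The ratio of each inducible subunit to its constitutive partner was then taken within each mouse, which cancels the scaling of the library, and compared by exact permutation tests (36 tests, two-sided, Benjamini-Hochberg adjusted). The ratio of Psmb8 to Psmb5 was 1.95-fold higher in vehicle than in chow livers (adjusted p = 0.00373). Relative to vehicle it was 0.794-fold after 8 weeks of chow reversal (adjusted p = 0.0412), 0.656-fold after 16 weeks (adjusted p = 0.00186) and 0.651-fold after 24 weeks (adjusted p = 0.0125). Relative to vehicle it was 1.18-fold, 1.04-fold and 1.02-fold after 8, 16 and 24 weeks of semaglutide, none of which passed. The ratio of Psmb8 to Psmb5 was higher in semaglutide than in chow reversal livers at all 3 times, by 1.49-fold (adjusted p = 0.00315), 1.59-fold (adjusted p = 0.00186) and 1.57-fold (adjusted p = 0.00858), and at 8 and 16 weeks every semaglutide liver exceeded every chow reversal liver.

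The ratio of Psmb9 to Psmb6 behaved otherwise under semaglutide. Without the 3 libraries numbered apart it was 0.748-fold that of vehicle at 16 weeks and 0.657-fold at 24 weeks, with adjusted p = 0.113 and 0.0569 in exact permutation tests. With all libraries it was 0.721-fold at 16 weeks (adjusted p = 0.0456) and 0.652-fold at 24 weeks (adjusted p = 0.0377). These are differences of −0.471 and −0.616 on the log2 scale, where Psmb9 itself differed by −0.10 and −0.20 and did not pass. The constitutive subunits had median log2 fold changes of 0.372 and 0.358 between semaglutide and vehicle livers at those times. The ratio is therefore not a measure of Psmb9 alone. Chow reversal held the ratio of Psmb9 to Psmb6 at 0.65-fold, 0.565-fold and 0.552-fold of vehicle at 8, 16 and 24 weeks (adjusted p = 0.00315, 0.00315 and 0.00373). Vehicle exceeded chow 2.28-fold (adjusted p = 0.00373). Semaglutide exceeded chow reversal 1.42-fold at 8 weeks (adjusted p = 0.00315), but the ratios of 1.28-fold at 16 weeks and 1.18-fold at 24 weeks did not pass (adjusted p = 0.0709 and 0.406), nor did semaglutide against chow (1.49-fold, adjusted p = 0.0628). Psmb9 itself was higher in semaglutide than in chow reversal livers by 0.63 and 0.56 on the log2 scale at 16 and 24 weeks. The ratio of Psmb10 to Psmb7 was 1.83-fold higher in vehicle than in chow livers (adjusted p = 0.00484) and 0.608-fold and 0.695-fold that of vehicle after 16 and 24 weeks of chow reversal (adjusted p = 0.00186 and 0.0329), and no semaglutide difference from vehicle passed (adjusted p = 0.0745, 0.422 and 0.628). Semaglutide exceeded chow reversal in this ratio 1.33-fold, 1.48-fold and 1.36-fold after 8, 16 and 24 weeks (adjusted p = 0.0105, 0.00373 and 0.0478).

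**Figure D3:**
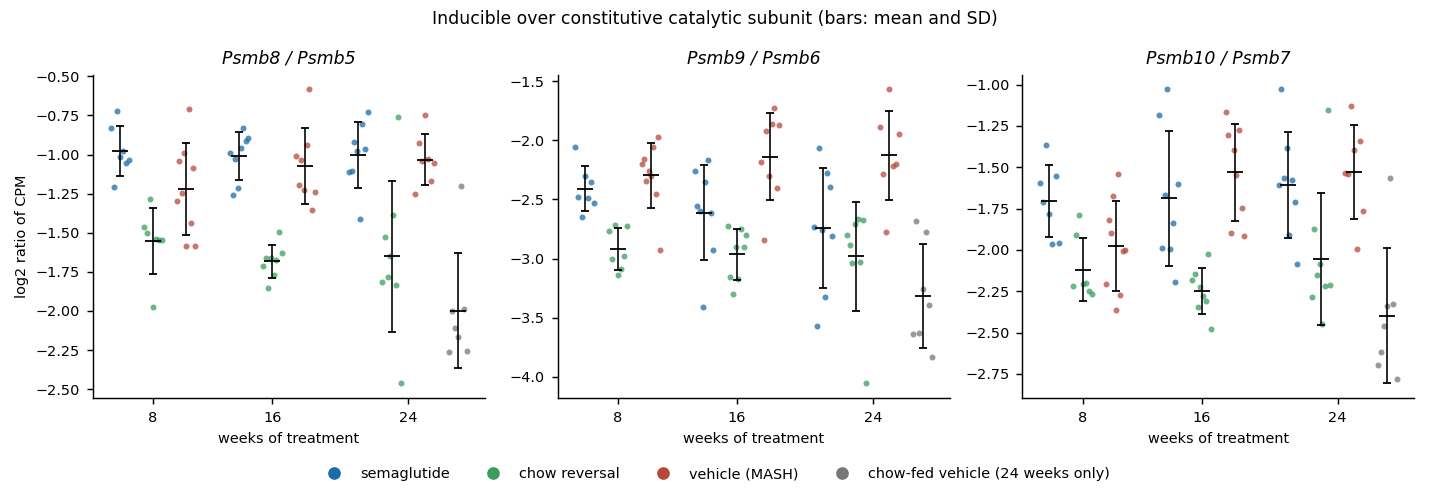
Log2 ratio of CPM of each inducible to its constitutive proteasome subunit in every mouse (y axis) against weeks of treatment (x axis), with points for mice and bars for the mean and SD. The ratios are not scaled by gene length. Psmb8 over Psmb5 at 16 weeks averages −1.011 in semaglutide, −1.681 in chow reversal and −1.072 in vehicle livers, and the chow reversal mice lie below all others.

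Other subunits of the proteasome did not follow the inducible ones. Of 11 other 20S core subunits tested, none was higher and 4 were lower in vehicle than in chow livers (47.8% of all genes passed, 22% lower). The number higher in semaglutide than in vehicle livers was 7 at 16 weeks (6.44% of all genes higher) and 7 at 24 weeks (10.8%). The median log2 fold change of the 11 was −0.232 between vehicle and chow and 0.311 between semaglutide and vehicle at 24 weeks, against −0.021 and −0.010 over all genes. Psma5, an alpha-ring subunit, was lower in vehicle than in chow livers at a log2 fold change of −0.29 (adjusted p = 0.00308) and higher than in vehicle livers after 24 weeks of semaglutide by 0.27 (adjusted p = 0.00921), and the alpha-ring subunits Psma4, Psma3 and Psma2 changed likewise at 24 weeks, by 0.30, 0.24 and 0.31. Of 23 genes of the 19S regulator and of proteasome assembly, 1 was higher and 8 lower in vehicle than in chow livers (median −0.156), where 47.8% of all genes passed. At 24 weeks 7 were higher and 1 lower in semaglutide than in vehicle livers (median 0.233), where 24.3% of all genes passed. The gene that was lower, Psmd8, was also the exception between vehicle and chow, at 0.68 (adjusted p = 1.15e-07). The interferon-inducible activator genes Psme1 and Psme2 (PA28 alpha and beta) did not rise with the immunoproteasome: they differed between vehicle and chow livers by 0.03 (adjusted p = 0.883) and −0.01 (adjusted p = 0.976), and passed only as higher after 8 weeks of chow reversal than with vehicle (0.50, adjusted p = 0.006623, and 0.32, adjusted p = 0.03931).

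Nlrc5, which drives class I promoters, changed in none of the 12 comparisons in edgeR with TMM. It averaged 19.4 ± 5.23 CPM in semaglutide, 18.5 ± 4.11 CPM in chow reversal, 18.4 ± 2.89 CPM in vehicle and 15.6 ± 4.74 CPM in chow livers at 24 weeks (SD). The difference between vehicle and chow was 0.24, with a 95% interval of −0.097 to 0.585, so that an increase of the size seen for Psmb8 or Psmb9 lay outside it. A gene of the lincRNA class, 9330175E14Rik, overlaps Nlrc5 by 748 bases on the opposite strand.

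Irf1, a transcription factor of the interferon gamma pathway, passed only as higher in semaglutide than in vehicle livers at 8 weeks (0.37, adjusted p = 0.03929). Of 21 genes of class I transcription and the interferon gamma pathway, 6 were higher and 2 lower in vehicle than in chow livers. At 24 weeks 1 was higher and 5 lower in semaglutide than in vehicle livers. Of all genes, 47.8% passed in the first comparison and 24.3% in the second. The median log2 fold changes of the list were 0.006 and −0.176. In the joint semaglutide test 8 of the 21 passed, against 30.9% of all genes. The genes named next were chosen for their small p in that test. The genes that fell with semaglutide at 24 weeks included Ciita, the class II transactivator (−0.98, adjusted p = 0.000766), Irf8, a factor of myeloid cells (−0.60, adjusted p = 0.00382), and Ifngr2, a chain of the interferon gamma receptor (−0.51, adjusted p = 0.000329). All 3 were higher in vehicle than in chow livers, by 3.14, 2.11 and 0.86. Nfyb, a CCAAT-binding factor of class I and class II promoters, ran the opposite way, at −0.59 between vehicle and chow livers (adjusted p = 4.83e-06) and 0.32 between semaglutide and vehicle livers at 24 weeks (adjusted p = 0.0196).

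Time on treatment changed none of the 10 genes past the threshold. Between 24 and 8 weeks of vehicle, edgeR and DESeq2 called none, 5 had an unadjusted p under 0.05, and 0.792% of all genes passed. The largest increases over that time were those of Psmb10 (0.58, adjusted p = 0.2254), Psmb8 (0.47, adjusted p = 0.2104) and Psmb9 (0.39, adjusted p = 0.2027). The change of the semaglutide effect between 8 and 24 weeks passed for none of the 10 genes in edgeR or DESeq2, with none at an unadjusted p under 0.05, and for 0.0604% of all genes. The change of the chow reversal effect passed for none in either tool, with 3 at an unadjusted p under 0.05 and 0.215% of all genes passing. The log2 fold changes of Psmb8 and Psmb9 between chow reversal and vehicle livers were −0.17 and −0.22 at 8 weeks, where neither passed (adjusted p = 0.4314 and 0.2059), and −0.72 and −0.76 at 24 weeks, and the difference between these times had adjusted p = 0.3214 and 0.2547.

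Markers of other cell types moved in the same comparisons, and in a piece of liver fewer cells of a type and less RNA per cell cannot be told apart. Of 20 T and NK cell markers tested, 18 were higher in vehicle than in chow livers, as were 25.8% of all genes. Between semaglutide and vehicle livers edgeR called none at 8, 16 and 24 weeks, where 5.75%, 12.2% and 24.3% of all genes passed. At those times 0, 1 and 1 had an unadjusted p under 0.05. Against vehicle, chow reversal lowered 1 of them after 8 weeks, 5 after 16 weeks and 15 after 24 weeks. Of all genes, 17.9%, 16.2% and 19.1% were lower at these times. At 24 weeks 13 were higher in semaglutide than in chow reversal livers, as were 7.77% of all genes. Their summed level ranged over 17.58, 29.4 and 48.62 CPM (lowest, median and highest) in semaglutide livers, 8.866, 13.11 and 23.38 CPM in chow reversal livers, 22.57, 40.68 and 61.54 CPM in vehicle livers and 5.673, 6.904 and 9.273 CPM in chow livers at 24 weeks. Ccl5, a chemokine of T and NK cells, differed at a log2 fold change of −0.98 between semaglutide and vehicle livers (adjusted p = 0.0505) and at a log2 fold change of −2.50 between chow reversal and vehicle livers (adjusted p = 9.1e-07) at 24 weeks. Cd3e, a chain of the T cell receptor complex, had values of −0.01 (adjusted p = 0.984) and −1.22 (adjusted p = 0.0115).

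Macrophage and monocyte markers fell under both treatments. Of 16 tested, 15 were higher in vehicle than in chow livers, as were 25.8% of all genes. After 8, 16 and 24 weeks, 1, 5 and 11 were lower in semaglutide than in vehicle livers, against 12, 14 and 14 in chow reversal livers. Of all genes, 3.51%, 5.8% and 13.6% were lower with semaglutide and 17.9%, 16.2% and 19.1% with chow reversal. Their summed level ranged over 716.7, 944.9 and 1439 CPM in semaglutide livers, 191.4, 395.6 and 1364 CPM in chow reversal livers, 1326, 1775 and 1942 CPM in vehicle livers and 176.5, 233.2 and 531.3 CPM in chow livers at 24 weeks. Ccr2, a receptor of recruited monocytes, Cd68 and Itgax were lower in semaglutide than in vehicle livers at 24 weeks, at log2 fold changes of −1.60 (adjusted p = 3.92e-05), −1.04 (adjusted p = 0.000713) and −1.26 (adjusted p = 0.00107). Of 8 dendritic cell markers, 7 were higher in vehicle than in chow livers. For these markers edgeR called none between semaglutide and vehicle (3, 2 and 1 at an unadjusted p under 0.05), where 5.75%, 12.2% and 24.3% of all genes passed. In chow reversal livers 1, 4 and 5 were lower than in vehicle livers. The other shares of all genes are those given for the macrophage markers.

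The 10 hepatocyte markers ran against these lists, with 9 lower in vehicle than in chow livers, as were 22% of all genes. At 8, 16 and 24 weeks, 4, 5 and 9 were higher in semaglutide than in vehicle livers, against 2.24%, 6.44% and 10.8% of all genes. In chow reversal livers 9, 8 and 9 were higher than in vehicle livers, against 14.2%, 12.1% and 17% of all genes. No gene of the T and NK cell, macrophage or hepatocyte lists was at 0 in every mouse of a group. The part of these cells in the levels of the 10 genes was not tested.

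**Figure D4:**
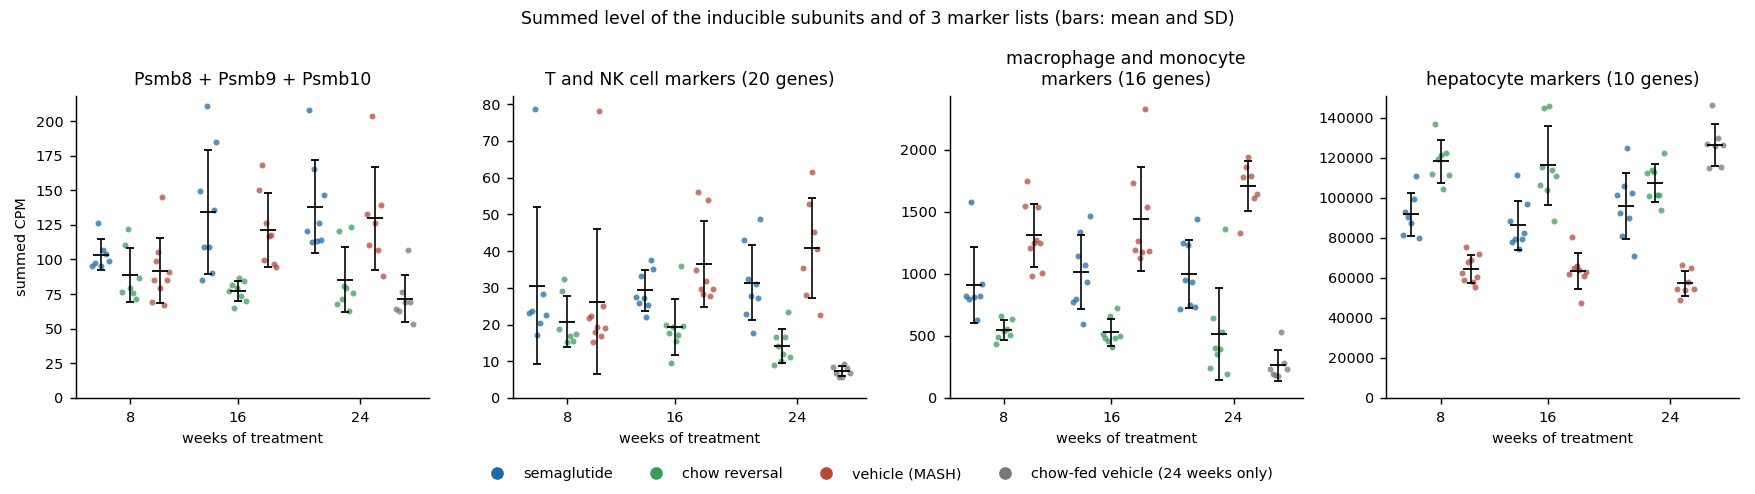
Summed CPM (y axis) of Psmb8, Psmb9 and Psmb10 and of 3 marker lists in every mouse against weeks of treatment (x axis), with points for mice and bars for the mean and SD. At 24 weeks the T and NK cell markers have medians of 29.4 CPM in semaglutide, 13.11 CPM in chow reversal, 40.68 CPM in vehicle and 6.904 CPM in chow livers, and the macrophage markers 944.9, 395.6, 1775 and 233.2 CPM in the same order.

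Over the 77 mice the 10 genes fell into sets that varied together, described here by Pearson's r of log2 CPM over mice and, within groups, after removal of the group means. Psmb8 correlated with Psmb10 (r = 0.86 over all mice and 0.86 within groups) and with Psmb9 (0.85 and 0.68). Tap2 correlated with Tapbp (0.79 and 0.84) and with Tap1 (0.79 and 0.55). H2-D1 correlated with Tap2 (0.78 and 0.65), and with H2-K1 within groups (0.61) more than over all mice (0.15). B2m ran against Tap2 (−0.34 and −0.51), and the 3 libraries numbered apart, which share high B2m and have Tap2 levels of 24.78, 34.65 and 25.82 CPM, add to that value. All mice share the treatment groups and all genes of a mouse share its library.

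**Figure D5:**
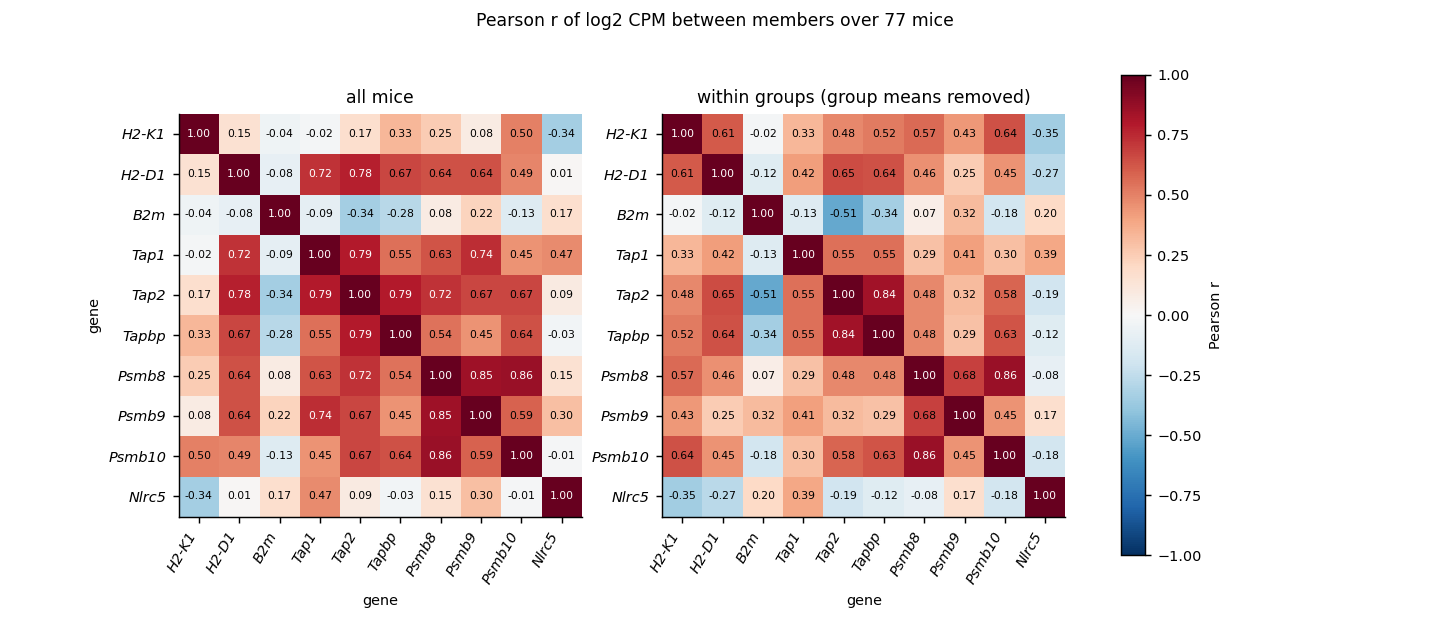
Pearson's r between each pair of the 10 genes over 77 mice, from log2 CPM as measured (left) and after removal of group means (right), with colour and number for r. The pair Psmb8 and Psmb10 reads 0.86 in both panels, and H2-D1 and H2-K1 read 0.15 on the left and 0.61 on the right.

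Other genes were ranked by how like their levels over 77 mice were to the mean standardised level of the 10 genes. Predicted genes and others with provisional names were left out. The 8 most alike were Uba7 (r = 0.868), Irf7 (0.851), Ifit3 (0.823), H2-T10 (0.82), Trim12a (0.819), Xaf1 (0.807), Rtp4 (0.804) and Zbp1 (0.803). Within groups the values ran from 0.558 for Rtp4 to 0.736 for Uba7. Uba7 is the activating enzyme for the ubiquitin-like modifier Isg15, and Irf7 is the transcription factor of type I interferon genes. H2-T10 is a nonclassical class I heavy chain gene, annotated as a polymorphic pseudogene. Since these 8 genes were chosen by their likeness over all mice, group differences included, their differences between groups are given as a description. The log2 fold change between vehicle and chow livers ran from 0.549 for Trim12a to 1.516 for Ifit3, and that between chow reversal and vehicle livers at 16 weeks from −1.259 for Xaf1 to −0.486 for Trim12a. Between semaglutide and vehicle livers at 24 weeks it ran from −0.691 for Ifit3 to 0.182 for Trim12a, and Uba7 had −0.085.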

How the data were processed

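RNA from the left lateral liver lobe of 77 mice had been sequenced on an Illumina NextSeq from stranded libraries. According to the submitters' processing notes, the authors aligned reads with STAR 2.7.3a to GRCm38 and quantified them with Salmon 1.2.0, with quality control by FastQC 0.11.9 and Picard. The annotation release and the strand setting are not given in the sources used here. The deposited values are estimated counts per gene, which the authors made with Salmon and which carry no further normalization. Of these values 7.548% are not whole, and all were rounded. Gene identifiers were mapped to GRCm38 symbols (55227 of 55487 matched), and counts without a symbol made up 0.0155% of the total. Reads that fit several class I genes, or genes that overlap, can be divided between them by the quantification.

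Groups were taken from the treatment label of each mouse. Counts were filtered with filterByExpr, scaled by TMM and fitted with all 10 groups in edgeR 4.0.16 (R 4.3.3, limma 3.58.1) by the quasi-likelihood test, with Benjamini-Hochberg adjustment over 14904 genes and a threshold of 0.05. DESeq2 1.42.0 served as an alternative, beside RLE size factors, scaling to library totals, no filter on low counts, a fit of only the groups compared, a blocking term for runs of adjacent library numbers, and leaving out the 3 libraries numbered apart, which makes 7 alternatives per comparison. Correlations and standardised levels used log2 CPM with a prior count of 2. Ratios were compared with exact permutation tests in scipy 1.17.1 (Python 3.11.15). The fits were tested on simulated data. Depth lay between 8883150 and 37631072 counts per library. The SD measures the spread between mice, and the SE the precision of an estimated log2 fold change.

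The text names all 10 genes, Psmb5, Psmb6, Psmb7, Psme1, Psme2, H2-Q10 and Irf1, up to 4 genes of each other list with the smallest joint p over the 3 semaglutide effects, and the 8 genes most like the mean of the 10. Beside the 10 genes, 17 lists with 210 genes were examined, of which 197 were tested. One gene that this rule names is not reported here. The genes and lists were chosen with earlier results of these data known. The effect of chow reversal over time was added after the values had been seen.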

Additional observations from a re-analysis of the deposited data

Results flagged for a closer look

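In 8 of 100 tests, 1 for each of the 10 genes in each of the 10 groups, the highest or lowest mouse lay far from the others of its group by Dixon's criterion, where chance alone gives about 1 in 20. Of these, 2 were the same library, semaglutide 24 weeks replicate 8, one of the 3 libraries numbered apart: B2m stood at 1690 CPM, the next mouse at 1200 CPM, and Tap2 at 25.8 CPM, the next lowest mouse at 46.6 CPM. In semaglutide 24 weeks replicate 2, Psmb10 stood at 108 CPM (next 72.7 CPM). In semaglutide 8 weeks replicate 3, H2-D1 stood at 813 CPM (next 700 CPM). In chow reversal 24 weeks replicate 2, H2-K1 stood at 1920 CPM (next 1500 CPM). In vehicle 24 weeks replicate 3, Psmb8 stood at 82.9 CPM (next 54.95 CPM), and in vehicle 8 weeks replicate 6, Psmb9 stood at 29.1 CPM (next 21.6 CPM). In chow 24 weeks replicate 5, Psmb8 stood at 43.7 CPM (next 29.05 CPM).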

How the results depend on the processing

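Of 40 differences that were called for single genes, 40 kept their direction and call with DESeq2 and with RLE size factors, 38 with library totals, 35 without a filter on low counts, 36 without the 3 libraries numbered apart, 38 with the block on library numbers and 32 with only the groups compared. The number of the 10 genes called between semaglutide and vehicle livers at 16 weeks was 2 (12.2% of all genes passed). It became 3 with library totals (18.3%), 1 without the filter (4.26%) and 0 without the libraries numbered apart (4.96%). It was 0 with the block (4.78%) and 1 with only the groups compared (3.9%). At 24 weeks the number was 2 (24.3%). It became 4 with library totals (32.5%), 0 without the filter (9.14%), 1 without those libraries (26.6%) and 0 with only the groups compared (18.1%). Between chow reversal and vehicle livers, library totals gave 7 in place of 2 at 8 weeks (44.3% of all genes passed), 9 in place of 6 at 16 weeks (38%) and 8 in place of 5 at 24 weeks (41.2%). Between semaglutide and chow reversal livers, 1 gene at 8 weeks became 2 with library totals, 0 without the filter and 2 with only the groups compared, and 5 at 24 weeks became 1 with only the groups compared, Psmb8 (adjusted p = 0.0269). Between chow reversal and chow livers, 1 became 3 with library totals and 0 with only the groups compared. Psmb10 between chow reversal and vehicle livers at 16 weeks lost its call without the filter (adjusted p = 0.0925) and without the libraries numbered apart (adjusted p = 0.0511). Summing all class I heavy chains reversed the sign given for H2-D1: 0.072 and 0.207 between semaglutide and vehicle at 16 and 24 weeks, 0.048 and 0.1 between chow reversal and vehicle at 16 and 24 weeks, −0.215 between vehicle and chow, and −0.009 between semaglutide and chow. The cause of these changes was not tested. No paired analysis was possible because each mouse was killed at 1 time in 1 group and carries its own animal number. Among the 10 genes Nlrc5 had the lowest counts, while Psmb10 had the largest standard errors.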
